A study of Mus musculus with 6 samples.

Results

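The genes described here encode the antigen presentation machinery of the major histocompatibility complex (MHC), class I and class II. They were taken by symbol from a list of 32 names, chosen by function, and all 32 were found among the 22192 genes of the deposited count table. The cells were Raw 264.7, a mouse macrophage-like line of BALB/c origin, and their RNA was enriched for polyadenylated transcripts before sequencing. For 3 libraries, cells had been exposed for 24 h to 200 µg/mL ASPS-A1, which is an acidic polysaccharide that was isolated from the leaves of Acanthopanax senticosus. Another 3 libraries were labelled control, with no treatment named. Both groups are the same cell line, and nothing in the labels says whether the libraries of a group came from separate cultures, so p-values measure the spread between these libraries, which may be technical.

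MHC class I molecules present peptides from the cytosol on nearly every nucleated cell. The heavy chain pairs with beta-2-microglobulin in the endoplasmic reticulum, where the TAP transporter delivers peptides and tapasin helps to load them. Class II molecules present peptides from endosomes and lysosomes, mainly on dendritic cells, B cells and macrophages. Their α and β chains travel with the invariant chain CD74, and DM exchanges the remaining invariant chain fragment for peptide while DO holds DM back. Transcription of class II genes needs the coactivator CIITA, and that of class I genes is helped by the related NLRC5. Both act on a promoter module bound by RFX, CREB and NF-Y, and in macrophages interferon-γ is the classical inducer of class II.

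Of the 32 genes, 20 lie on mouse chromosome 17 (GENCODE, GRCm38), and 19 of these fall in or beside the MHC, between positions 33915899 and 37274484. The other 12 include B2m on chromosome 2, Mr1 on chromosome 1 and Ciita on chromosome 16. The genome build behind the counts is not given in the sources used here. GRCm38 is the sequence of C57BL/6J, whose MHC haplotype differs from that of BALB/c. If counting used such a reference, reads from polymorphic chains may have been assigned less completely, in both groups alike.

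Promoters of 3 class I chains are shown because genes with closely similar upstream sequence differed in direction under TMM scaling, H2-Q4 and H2-Q6 being lower and H2-K1 higher. With library totals alone or with length and GC offsets, explained further on, H2-K1 was also below 0 (−0.021 and −0.031 on the log2 scale, neither called). RefSeq promoter windows (GRCm38.p6, 250 bases before to 50 after the start) were found for 23 of the 32 genes. Each stretch of 60 bases runs 5′ to 3′ on the gene's strand, and capitals mark matches to a kappa-B pattern (GGG, any 2 bases, TT, any base, CC) and to an interferon-stimulated pattern (GAANNGAAA, here on the opposite strand). H2-K1 is at chr17:34000414-34000473 (minus strand), H2-Q4 at chr17:35379428-35379487 (plus strand, within an exon of the noncoding gene Gm11131) and H2-Q6 at chr17:35424662-35424721 (plus strand).
H2-K1: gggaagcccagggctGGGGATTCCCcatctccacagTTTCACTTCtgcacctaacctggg
H2-Q4: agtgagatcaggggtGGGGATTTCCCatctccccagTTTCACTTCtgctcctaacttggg
H2-Q6: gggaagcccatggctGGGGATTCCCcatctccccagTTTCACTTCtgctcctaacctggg
The H2-Q4 capitals on the left hold a pair of overlapping kappa-B matches. Over the 60 positions, H2-Q6 was 95% identical to H2-K1 and H2-Q4 was 83.3% identical, and the matching stretch of H2-D1 was 98.3% identical. Both patterns stood together in the windows of H2-K1, H2-D1, H2-Q4, H2-Q6 and H2-Q7, and in 0.417% of all 32851 promoter windows. Alone, the kappa-B pattern was found on either strand in 4.79% of windows and the interferon-stimulated pattern in 7.52%.

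For class II, the stretches from 120 to 39 bases before the start are shown for a pair of genes that fell and for H2-Aa, which had almost no reads. Capitals mark the Y box that binds NF-Y (ATTGG) and a short core of RFX sites (GCAAC), a pattern chosen after the sequences were seen. H2-Eb1 is at chr17:34305747-34305828 (plus strand), H2-Oa at chr17:34092259-34092340 (plus strand) and H2-Aa at chr17:34287862-34287943 (minus strand).
H2-Eb1: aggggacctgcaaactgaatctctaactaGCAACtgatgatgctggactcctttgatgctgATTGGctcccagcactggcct
H2-Oa: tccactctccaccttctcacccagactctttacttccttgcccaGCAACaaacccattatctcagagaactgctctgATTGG
H2-Aa: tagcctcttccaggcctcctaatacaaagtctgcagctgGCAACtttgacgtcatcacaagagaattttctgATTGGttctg
All 3 hold the RFX core upstream of the Y box, in the order of the RFX and NF-Y sites of class II promoters. These short patterns are common, since 35.2% of all promoter windows hold GCAAC and 37.4% hold ATTGG on either strand. A longer X box pattern (C, any 2 bases, AG, any 2 bases, AC, any base, G) matched the windows of H2-DMb1, Tap1 and H2-M3, against 18.1% of all windows, and not those of the 3 genes shown.

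Libraries held 19989318 to 22179544 counts with ASPS-A1 and 23113454 to 26137127 in control. Counts were scaled with TMM factors, which set the bulk of genes equal between libraries, and are given as CPM, counts scaled to a library of 1000000. The 11686 genes abundant enough were tested with edgeR's quasi-likelihood test and Benjamini-Hochberg adjustment over all of them, and a gene is called at an adjusted p under 0.05. Summed CPM of 8 macrophage markers was 2868 to 3019 with ASPS-A1 and 1955 to 1979 in control, with 6 of the 8 called higher and Mertk at most 1.1 CPM in any library, and the part of this shift in the values below was not tested. Of 6 dendritic cell markers the sum was 3.39 to 4.87 CPM with ASPS-A1 and 4.18 to 4.40 CPM in control, and the 5 T cell markers summed to 0.424 to 0.924 CPM with ASPS-A1 and 0.484 to 0.638 CPM in control, mostly from Cd3d and Cd8a, with Cd3e and Cd3g at 0 counts in every library. The 4 epithelial markers summed to at most 0.053 CPM with ASPS-A1 and 0.116 CPM in control. One B cell marker, Cd79b, stood at 34.6 ± 3.29 CPM with ASPS-A1 and 31.0 ± 1.23 CPM in control (SD, n = 3 each), while Cd79a, Ms4a1 and Pax5 summed to at most 0.213 CPM in any library.

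Of the 32 genes, 27 passed the filter on low counts. With ASPS-A1, 9 were higher, 11 were lower and 7 were not past the threshold. Over all genes tested, 65.3% were called, 32.4% higher and 33.0% lower, so the 74.1% of tested antigen presentation genes that were called is near that background. The 5 not tested were H2-Aa, H2-Ab1, H2-DMb1, H2-DMb2 and H2-Q7. H2-T24 passed the filter only through the ASPS-A1 libraries, and its difference follows in part from that.

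**Figure D1:**
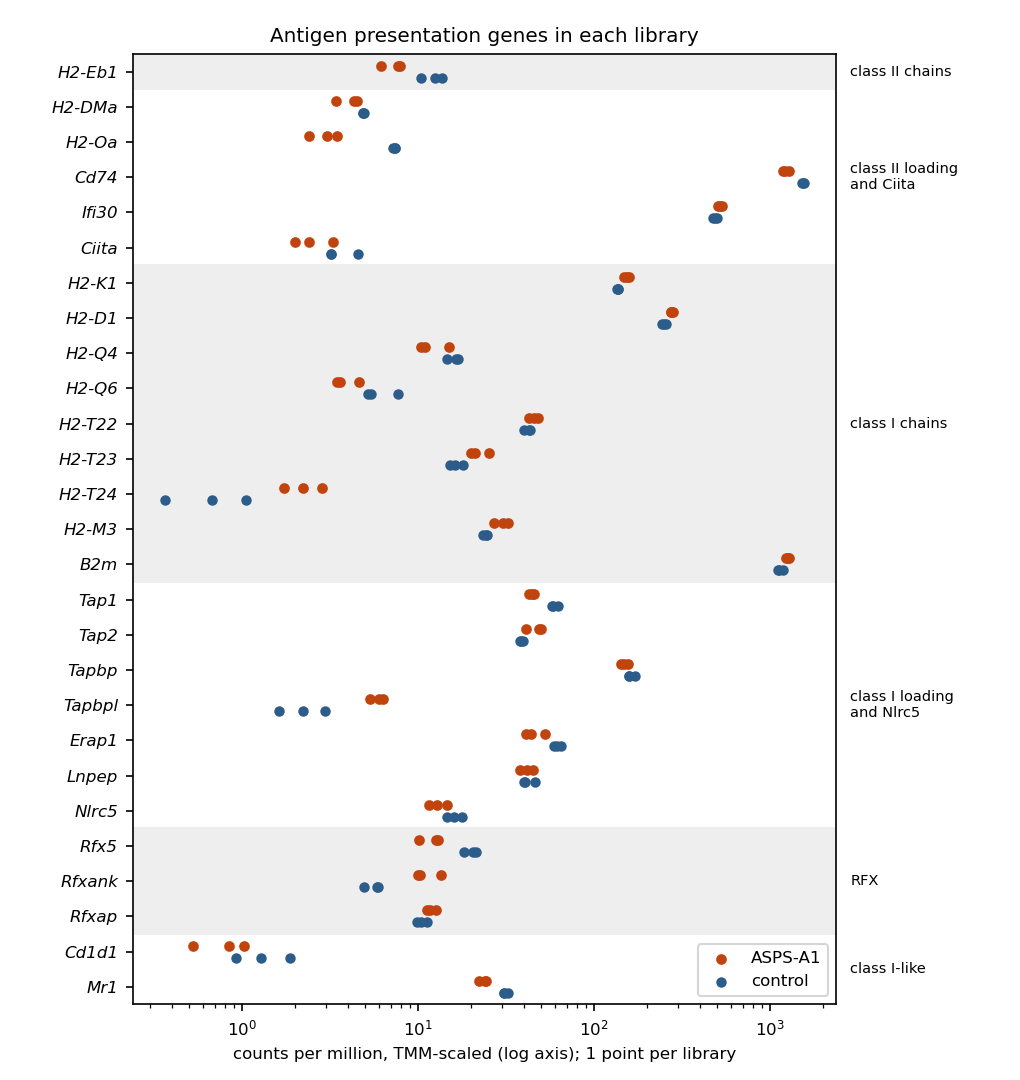
CPM (TMM-scaled, log axis) of the 27 tested antigen presentation genes, 1 point per library, with ASPS-A1 above control in each row. Cd74 and B2m stood near or above 1108 CPM in every library, and the ASPS-A1 libraries lay to the left of control for H2-Eb1, H2-Oa and Cd74.

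Class II genes were lower or not past the threshold with ASPS-A1. Of the 10 genes, 6 were tested, and of these 3 were called lower, 0 higher and 3 neither way (edgeR). At an unadjusted p under 0.05 the counts were 1 higher and 4 lower, and DESeq2 called 1 higher and limma-voom 0. The median log2 fold change of the 6 was −0.42, against −0.021 over all genes tested, where 32.4% were called higher and 33.0% lower. With scaling by library totals alone, where 21.6% of all genes were called higher and 46.7% lower, all 6 were called lower, with a median of −0.61 against −0.22 over all genes. With offsets that remove trends with transcript length and GC content, where 32.5% of all genes were called higher and 30.4% lower, 4 of the 6 were called lower and 0 higher. In bulk RNA, fewer expressing cells and less RNA per cell cannot be told apart.

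Of the classical class II chains in the count table, only H2-Eb1, the β chain of I-E, had more than 13 counts in any library. It stood at 6.16, 7.88 and 7.68 CPM with ASPS-A1, against 10.4, 12.4 and 13.7 CPM in control. The groups did not overlap, and the fall was 1.69-fold (log2 fold change −0.76 ± 0.14 SE, adjusted p = 3.84e-06). For H2-Aa, the α chain of I-A, the ASPS-A1 libraries held 9, 9 and 3 counts and the control libraries 7, 7 and 13. H2-Ab1, its β partner, had 0 counts in the ASPS-A1 libraries and 2 over the control libraries. A count of 0 over the ASPS-A1 group allows up to 3 counts, or 0.0481 CPM without TMM scaling, for counting error only.

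Cd74, the invariant chain that guides class II to endosomes, was by far the most abundant class II gene. It had 1209, 1274 and 1178 CPM with ASPS-A1 and 1540, 1565 and 1526 CPM in control. The fall was small, 1.26-fold, and clear of the spread between libraries (log2 fold change −0.34 ± 0.047 SE, adjusted p = 1.77e-08). Per kilobase of the longest coding transcript, Cd74 stood at 866 CPM with ASPS-A1 and 1095 CPM in control. On the same scale H2-Eb1 had 4.34 CPM per kilobase with ASPS-A1 and 7.29 in control, and H2-Aa had 0.318 with ASPS-A1 and 0.300 in control. Cd74 made up 69.2% to 69.8% of the counts of the class II genes with ASPS-A1 and 74.8% to 75.4% in control.

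H2-Oa, the α chain of DO, showed the largest fall among the 27 tested genes. Its libraries had 3.48, 2.39 and 3.02 CPM with ASPS-A1 and 7.38, 7.36 and 7.23 CPM in control. This is a 2.46-fold fall (log2 fold change −1.30 ± 0.18 SE, adjusted p = 2.11e-08). Of the H2-Oa exon length, 22.8% overlaps other genes, with the largest single overlap from BC051537. H2-Ob, which encodes the β chain of DO and comes from the wider pathway list, had 8.93, 5.98 and 8.48 CPM with ASPS-A1, against 14.4, 14.4 and 13.6 CPM in control. Both DO chains were therefore lower in every ASPS-A1 library than in any control library (H2-Ob log2 fold change −0.85 ± 0.13 SE, adjusted p = 1.44e-07).

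DM, the partner that DO restrains, could be measured only through its α chain. H2-DMa had 4.49, 3.42 and 4.34 CPM with ASPS-A1 and 4.96, 4.84 and 4.86 CPM in control. The groups did not overlap, but the difference was small beside its error and not past the threshold (log2 fold change −0.25 ± 0.19 SE, adjusted p = 0.228). The H2-Oa to H2-DMa ratio of counts within a library was 0.723 ± 0.0461 with ASPS-A1 and 1.5 ± 0.0182 in control (SD, n = 3 each). Factors that scale a whole library cannot change this ratio, but length and GC offsets differ by gene and can. With those offsets the log2 fold change was −1.66 for H2-Oa and −0.37 for H2-DMa. For the β chains, H2-DMb1 had no count in any library and H2-DMb2 had 0 counts with ASPS-A1 and 10 counts over the control libraries. These 2 genes share sequence, with 13.7% of the stretches of 100 bases in H2-DMb1 also present in another gene's transcripts.

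Ifi30, the lysosomal reductase that opens disulfide bonds of antigens, was the other abundant class II gene. Its levels were 519, 535 and 507 CPM with ASPS-A1 and 476, 498 and 485 CPM in control. The groups did not overlap, yet the log2 fold change of 0.10 ± 0.047 SE was not past the threshold (adjusted p = 0.0630). Its direction depended on the scaling: library totals alone gave −0.10 (adjusted p = 0.0406) and the length and GC offsets gave −0.32 (adjusted p = 1.75e-11). Ciita, the class II coactivator, was scarce. It had 3.29, 2.39 and 2.01 CPM with ASPS-A1, against 3.19, 4.57 and 3.19 CPM in control. The groups overlapped, and the log2 fold change of −0.50 ± 0.24 SE was not past the threshold (adjusted p = 0.0632). Across the alternatives tried, it was between −0.72 (without ASPS-A1 replicate 1, adjusted p = 0.0185) and −0.20 (length and GC offsets, adjusted p = 0.474). It was also called lower with upper-quartile factors (−0.55, adjusted p = 0.0408) and library totals alone (−0.69, adjusted p = 0.0113), and was −0.31 (adjusted p = 0.338) without control replicate 2.

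Class I chains were mostly slightly higher with ASPS-A1, and the direction of the small changes depended on the scaling. Of the 10 chain genes, beta-2-microglobulin included, 9 were tested, of which 6 were called higher, 2 lower and 1 neither way. Their median log2 fold change was 0.14, against −0.021 over all genes tested, where 32.4% were called higher and 33.0% lower. With library totals alone 2 rose and 2 fell, against 21.6% higher and 46.7% lower over all genes. The median was then −0.051, where the median of all genes also shifted by −0.19. With length and GC offsets 1 rose and 3 fell, against 32.5% higher and 30.4% lower over all genes, and the median was −0.031.

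Of the classical heavy chains, which present most cytosolic peptides, H2-K1 and H2-D1 were in the deposited count table. H2-L was also sought by symbol and was not found there. H2-K1 had 153, 157 and 148 CPM with ASPS-A1, against 134, 136 and 136 CPM in control. H2-D1 had 272, 282 and 272 CPM with ASPS-A1, against 244, 250 and 256 CPM in control. Both were higher in every ASPS-A1 library, 1.13-fold for H2-K1 (adjusted p = 0.00185) and 1.10-fold for H2-D1 (adjusted p = 0.00763). On the log2 scale H2-K1 was at 0.17 ± 0.049 SE, but at −0.021 with library totals alone and −0.031 with length and GC offsets, and H2-D1 was at 0.14 ± 0.046 SE, but at −0.057 with library totals alone and 0.045 with the offsets. Leaving out control replicate 1 ended the H2-D1 call (0.12, adjusted p = 0.0583). The H2-K1 to H2-D1 ratio of counts was 0.554 ± 0.00871 with ASPS-A1 and 0.541 ± 0.00993 in control (SD, n = 3 each), a difference within the overlap of the libraries.

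B2m, the light chain shared by the class I molecules, was the most abundant gene of the class I set. It had 1235, 1259 and 1277 CPM with ASPS-A1, against 1126, 1177 and 1108 CPM in control. The groups did not overlap (log2 fold change 0.14 ± 0.046 SE, adjusted p = 0.00585). With library totals alone the value was −0.051 (adjusted p = 0.263), and with length and GC offsets B2m was called lower (−0.39, adjusted p = 1.56e-15).

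The nonclassical chains moved both ways. H2-Q4, a Qa chain, had 14.9, 10.9 and 10.4 CPM with ASPS-A1, against 14.5, 16.8 and 16.5 CPM in control. H2-Q6, a chain of the Qa family held at the cell surface by a lipid anchor, had 3.48, 3.59 and 4.61 CPM with ASPS-A1, against 5.20, 5.38 and 7.73 CPM in control. Both fell, with log2 fold changes of −0.39 ± 0.12 SE (adjusted p = 0.0034) and −0.65 ± 0.19 SE (adjusted p = 0.00208), although replicate 1 of ASPS-A1 lay within the control range for H2-Q4 and leaving out control replicate 3 ended the H2-Q6 call (−0.45, adjusted p = 0.0595). The H2-Q4 to H2-D1 ratio of counts was 0.0439 ± 0.00956 with ASPS-A1 and 0.0637 ± 0.0039 in control (SD, n = 3 each). Under TMM scaling H2-Q4 and H2-Q6 were called lower and H2-K1 and H2-D1 were not. The kappa-B and interferon-stimulated patterns described above are present in all 4 promoters, and their part in these values was not tested.

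H2-T23, which encodes the chain that displays leader peptides to inhibitory receptors of natural killer cells, had 21.1, 20.1 and 25.2 CPM with ASPS-A1, against 17.9, 16.3 and 15.1 CPM in control. H2-M3, which presents peptides that start with formylmethionine, had 26.9, 30.4 and 32.3 CPM with ASPS-A1, against 24.5, 23.5 and 24.4 CPM in control. Neither pair of groups overlapped. H2-T23 rose by 0.43 ± 0.10 SE on the log2 scale (adjusted p = 2.06e-04) and also with library totals alone (0.23), but had 0.16 (adjusted p = 0.14) with length and GC offsets. H2-M3 rose by 0.30 ± 0.084 SE (adjusted p = 0.00154), and had 0.11 (adjusted p = 0.259) with library totals alone and 0.0018 (adjusted p = 0.987) with the offsets.

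H2-T24, a little-studied chain, was the gene of the 27 with the largest fold rise, and passed the filter only through the ASPS-A1 libraries. Its counts were 36, 52 and 42 in the ASPS-A1 libraries and 9, 27 and 19 in the control libraries. These are 1.72, 2.83 and 2.22 CPM with ASPS-A1 and 0.363, 1.05 and 0.674 CPM in control, a 3.21-fold rise (log2 fold change 1.68 ± 0.37 SE, adjusted p = 9.74e-05). H2-T22, whose product is bound by some γδ T cell receptors, had 42.5, 47.9 and 45.5 CPM with ASPS-A1, against 40.2, 43.3 and 42.7 CPM in control. The H2-T22 groups overlapped (log2 fold change 0.11 ± 0.070 SE, adjusted p = 0.183), its value was −0.09 with library totals alone, and 14.2% of its stretches of 100 bases occur in another gene's transcripts. H2-Q7 had no count in any library. This limits assigned reads to 0.0481 CPM with ASPS-A1 and 0.0407 CPM in control over each group, both without TMM scaling. It does not limit expression, since 16.4% of the H2-Q7 stretches of 100 bases also occur in other transcripts, mainly H2-Q6, and reads of the BALB/c gene may not be assigned to it.

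**Figure D2:**
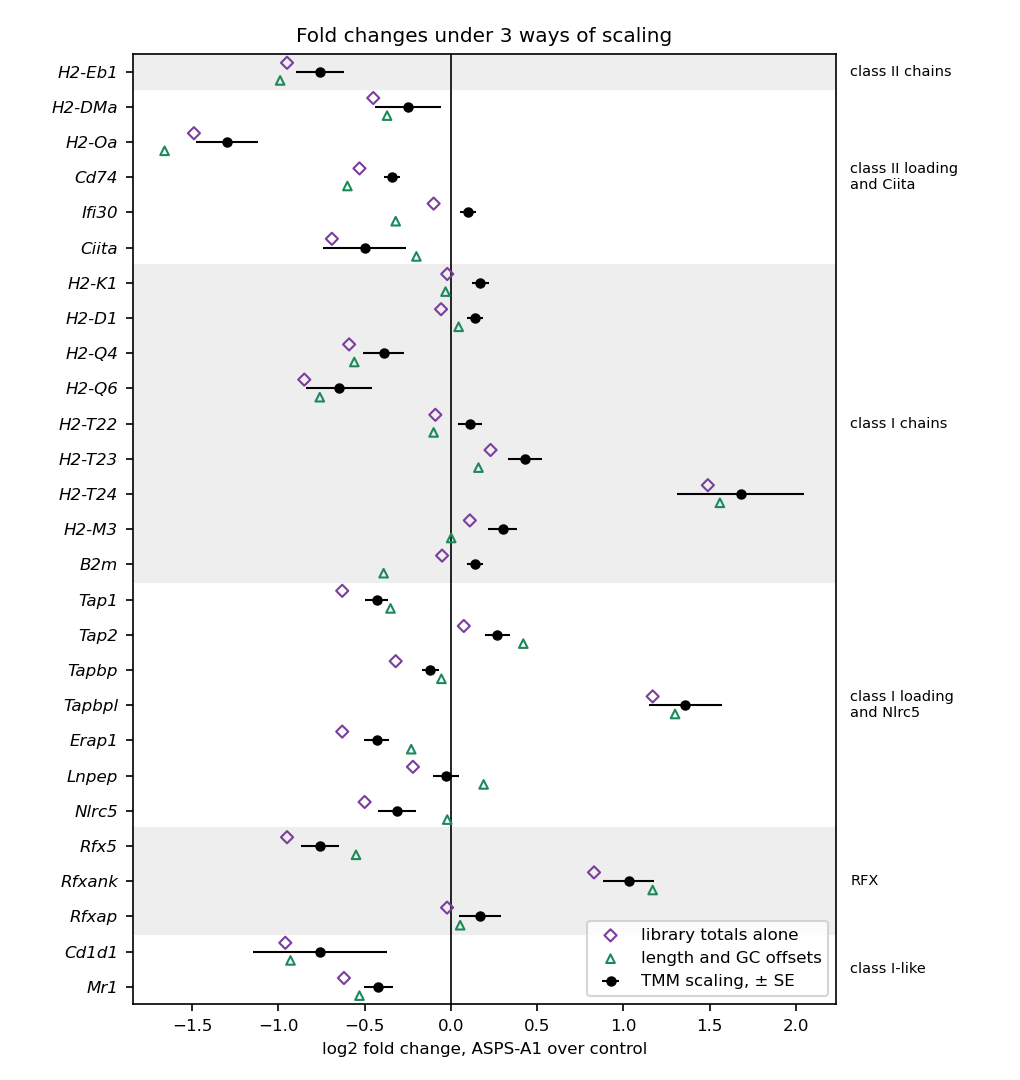
Log2 fold change, ASPS-A1 over control, of the 27 tested genes. Black points with SE bars use TMM scaling, diamonds library totals alone, triangles offsets for transcript length and GC content. H2-Oa, H2-Eb1, Cd74 and Rfx5 are below 0 under all 3, and H2-T24, Tapbpl and Rfxank are above 0 under all 3, while H2-K1, H2-D1 and B2m lie on either side of 0.

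Genes for loading class I changed in opposite directions within pairs. Of 7 such genes, all tested, 2 were called higher, 4 lower and 1 neither way, with a median log2 fold change of −0.12. Among all genes tested, 32.4% were called higher and 33.0% lower. The TAP transporter is made of one TAP1 and one TAP2 chain. Tap1 had 42.7, 44.2 and 45.5 CPM with ASPS-A1, against 62.2, 58.7 and 57.6 CPM in control. Tap2 had 49.8, 48.5 and 41.0 CPM with ASPS-A1, against 37.8, 39.2 and 38.6 CPM in control. Tap1 fell (log2 fold change −0.43 ± 0.066 SE, adjusted p = 1.58e-07) and Tap2 rose (0.27 ± 0.073 SE, adjusted p = 0.00122), although Tap2 was at 0.075 (adjusted p = 0.379) with library totals alone. Within libraries the Tap2 to Tap1 ratio of counts was 1.06 ± 0.138 with ASPS-A1 and 0.648 ± 0.0354 in control (SD, n = 3 each). Of the Tap2 exon length, 18.5% overlaps other genes, and of Tap1 3.87%. The largest single overlaps are with Gm15821 for Tap2 and with Psmb9 for Tap1.

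Tapasin and its relative also parted. Tapbp, which encodes tapasin and bridges TAP to class I, had 147, 155 and 143 CPM with ASPS-A1, against 157, 170 and 157 CPM in control. Tapbpl, which encodes a peptide editor that acts outside the TAP complex, had 5.97, 6.30 and 5.30 CPM with ASPS-A1, against 2.22, 1.63 and 2.94 CPM in control. Tapbpl rose 2.57-fold (log2 fold change 1.36 ± 0.21 SE, adjusted p = 3.03e-07) and kept that call under every alternative tried. Tapbp fell by 0.12 ± 0.050 SE on the log2 scale (adjusted p = 0.0334). That call was lost with RLE factors (adjusted p = 0.0629), DESeq2 (adjusted p = 0.0896) and length and GC offsets (−0.055, adjusted p = 0.285). It was also lost without ASPS-A1 replicate 1 (adjusted p = 0.102), ASPS-A1 replicate 3 (adjusted p = 0.14) or control replicate 2 (adjusted p = 0.214). The Tapbpl to Tapbp ratio of counts was 0.0394 ± 0.0021 with ASPS-A1 and 0.0141 ± 0.00458 in control (SD, n = 3 each). Of the Tapbp exon length, 29.0% overlaps other genes, with the largest single overlap from Gm19412.

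Erap1, the aminopeptidase that trims peptides in the endoplasmic reticulum, had 40.8, 43.9 and 52.8 CPM with ASPS-A1, against 61.5, 59.3 and 64.6 CPM in control. It fell 1.35-fold (log2 fold change −0.43 ± 0.073 SE, adjusted p = 1.87e-06). Of the Erap1 exon length, 11.5% overlaps other genes, with the largest single overlap from Cast. Lnpep, an endosomal aminopeptidase used in cross-presentation, had 37.7, 41.8 and 44.8 CPM with ASPS-A1, against 40.4, 46.0 and 40.1 CPM in control. Its groups overlapped (log2 fold change −0.026 ± 0.075 SE, adjusted p = 0.772), and it was called lower with library totals alone (−0.22, adjusted p = 0.01) and higher with length and GC offsets (0.19, adjusted p = 0.015). Nlrc5, the class I coactivator, had 14.6, 12.8 and 11.6 CPM with ASPS-A1, against 16, 14.6 and 17.7 CPM in control. Nlrc5 fell by 0.31 ± 0.11 SE on the log2 scale (adjusted p = 0.0141), with overlapping groups, and was not called without ASPS-A1 replicate 3 (adjusted p = 0.0963), without control replicate 3 (adjusted p = 0.10) or with length and GC offsets (−0.021, adjusted p = 0.879).

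The 3 subunits of RFX, which binds the promoters of both classes, went in different directions. Rfx5, the DNA-binding subunit, had 10.1, 12.9 and 12.6 CPM with ASPS-A1, against 21.2, 18.3 and 20.5 CPM in control. Rfxank had 13.5, 10 and 10.3 CPM with ASPS-A1, against 5.93, 5.81 and 4.93 CPM in control. Rfxap had 11.7, 12.6 and 11.3 CPM with ASPS-A1, against 9.80, 10.4 and 11.3 CPM in control. Rfx5 fell 1.69-fold (log2 fold change −0.76 ± 0.11 SE, adjusted p = 3.92e-08), Rfxank rose 2.04-fold (1.03 ± 0.15 SE, adjusted p = 3.51e-08), and Rfxap was not past the threshold (0.17 ± 0.12 SE, adjusted p = 0.20).

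The Rfxank to Rfx5 ratio of counts was 1.33, 0.776 and 0.819 with ASPS-A1 and 0.279, 0.317 and 0.241 in control. Every ASPS-A1 library was above every control library, and replicate 1 was the highest. Both genes share exons with neighbours, and whether counting used strand is not given in the sources used here. Of the Rfx5 exon length, 26.8% overlaps other genes, and of Rfxank 33.8%. The largest single overlaps are with B230398E01Rik for Rfx5 and with Nr2c2ap for Rfxank. Nr2c2ap itself had 46.3, 49.5 and 46.8 CPM with ASPS-A1 and 25.5, 26.4 and 21.2 CPM in control, a 1.95-fold rise (adjusted p = 1.03e-14), and its part in the Rfxank value was not tested.

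The class I-like molecules present antigens other than peptides. Mr1, which displays vitamin B metabolites of microbes to mucosal-associated invariant T cells, had 22.1, 24.2 and 23.9 CPM with ASPS-A1, against 30.9, 30.7 and 32.4 CPM in control. It fell 1.34-fold, with no overlap between the groups (log2 fold change −0.42 ± 0.082 SE, adjusted p = 1.60e-05). For Cd1d1, which displays lipids to natural killer T cells, the ASPS-A1 libraries held 11, 19 and 16 counts and the control libraries 46, 24 and 36. At that depth the log2 fold change of −0.76 ± 0.39 SE was not past the threshold (adjusted p = 0.0847).

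Set against each other within libraries, class II was lower relative to class I chains with ASPS-A1. The summed counts of the 10 class II genes over those of the 10 class I chain genes were 0.987, 1.01 and 0.936 with ASPS-A1 and 1.27, 1.25 and 1.27 in control. Since Cd74 and B2m dominate these sums, their own ratio was similar, at 0.971 ± 0.045 with ASPS-A1 and 1.36 ± 0.0247 in control (SD, n = 3 each). Without Cd74 and Ifi30 the class II share was small, at 0.00957 ± 4.83e-04 with ASPS-A1 and 0.0175 ± 0.00109 in control. The H2-Eb1 to H2-K1 ratio was 0.0474 ± 0.00615 with ASPS-A1 and 0.0899 ± 0.012 in control. In each of these ratios the groups did not overlap, as was true of the CPM of 68.5% of all genes tested. Cd74 and B2m differ in transcript length, and with length and GC offsets both had log2 fold changes below 0, −0.60 for Cd74 and −0.39 for B2m. Class I loading genes, left out of these ratios, also held a smaller share of all counts with ASPS-A1. Their share was 0.0319% to 0.0325% with ASPS-A1 and 0.0405% to 0.0411% in control. Class II genes held 0.16% to 0.168% with ASPS-A1 and 0.219% to 0.221% in control.

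**Figure D3:**
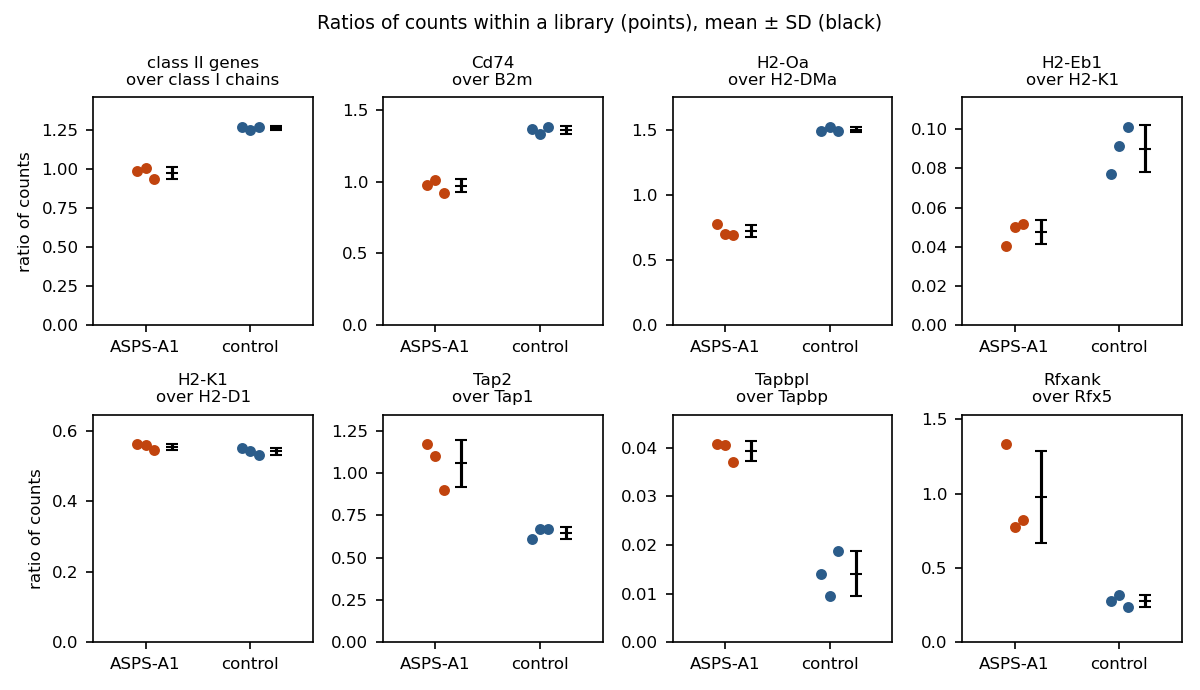
Ratios of raw counts between antigen presentation genes within each library (points, ASPS-A1 left of control), with mean and SD in black. The axes start at 0. The ratio of class II to class I chains is 0.976 with ASPS-A1 and 1.26 in control on average, and the H2-K1 to H2-D1 ratio is nearly level.

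The rest of the pathway was read from 6 lists chosen by function, beside 32.4% called higher and 33.0% lower over all genes tested. The proteasome list makes the peptides for class I, and 8 of its 9 genes were called higher, 0 lower and 1 neither way (edgeR, with 0 lower also at an unadjusted p under 0.05 and with DESeq2 and limma-voom). Psmb6 rose to 162, 171 and 173 CPM with ASPS-A1, against 88.0, 86.0 and 79.3 CPM in control (log2 fold change 1.00 ± 0.053 SE, adjusted p = 2.20e-21). Psmb7 rose by 0.87 on the log2 scale (adjusted p = 8.96e-20) and Psmb10 by 0.74 (adjusted p = 2.82e-08). The list's median was 0.57, or 0.38 with library totals alone and 0.16 with length and GC offsets. Under each of these alternatives 7 rose and 1 fell. Over all genes, 21.6% were higher and 46.7% lower with library totals alone, and 32.5% and 30.4% with the offsets.

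Interferon-γ swaps the catalytic subunits Psmb6, Psmb7 and Psmb5 for Psmb9, Psmb10 and Psmb8, which form the immunoproteasome. The Psmb9 to Psmb6 ratio of counts was 0.0743 ± 0.00462 with ASPS-A1 and 0.163 ± 0.024 in control, and the Psmb8 to Psmb5 ratio was 0.600 ± 0.0123 with ASPS-A1 and 0.783 ± 0.0424 in control (SD, n = 3 each). In both, every ASPS-A1 library was below every control library. The longest coding transcripts of Psmb9 (1352 bases) and Psmb8 (1628) exceed those of Psmb6 (798) and Psmb5 (899). Length and GC offsets can therefore change these ratios, and with them Psmb6 rose by 0.55 rather than 1.00 on the log2 scale. The Psmb10 to Psmb7 ratio overlapped between the groups, at 0.0758 ± 0.00391 with ASPS-A1 and 0.0828 ± 0.0065 in control. Psmb9 itself had 12.0, 12.0 and 13.7 CPM with ASPS-A1 and 12.1, 14.4 and 14.7 CPM in control, and was not past the threshold (adjusted p = 0.311). Psmb8 was called higher (log2 fold change 0.34, adjusted p = 2.03e-06), and Psmb5 rose more (0.73, adjusted p = 7.38e-17).

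Genes of the interferon-γ list, which do not all carry the signal forward, were lower or were not called. Of 10, 0 were called higher, 6 lower and 4 neither way (edgeR), against 32.4% higher and 33.0% lower over all genes tested. At an unadjusted p under 0.05, and with DESeq2 and limma-voom, 0 were higher also. With length and GC offsets 1 rose and 4 fell, against 32.5% higher and 30.4% lower over all genes. Ifngr1, the ligand-binding chain of the interferon-γ receptor, had 23, 22.7 and 24.8 CPM with ASPS-A1, against 39.8, 36.0 and 37.1 CPM in control. It fell by 0.68 ± 0.080 SE on the log2 scale (adjusted p = 3.76e-10). The kinase Jak2 (−0.43, adjusted p = 4.95e-08) and the transcription factor Irf1 (−0.40, adjusted p = 2.80e-04) also fell. The list's median was −0.21, or 0.008 with length and GC offsets.

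Of 8 NF-Y, CREB1 and coactivator genes, 1 was called higher, 3 lower and 4 neither way. Over all genes the shares were 32.4% higher and 33.0% lower. Nfya, the DNA-sequence-reading subunit of NF-Y, had 47.6, 42.2 and 44.2 CPM with ASPS-A1, against 87.3, 86.2 and 92.1 CPM in control (log2 fold change −0.98 ± 0.062 SE, adjusted p = 1.56e-18). Nfyc, another NF-Y subunit, rose by 0.69 ± 0.14 SE (adjusted p = 2.55e-05). Among the histone acetyltransferases, Ep300 fell by 0.91 on the log2 scale (adjusted p = 5.37e-17) and Kat2b by 0.53 (adjusted p = 3.99e-05). NF-Y and RFX thus each held 1 subunit that rose and 1 that fell. With library totals alone 7 of the 8 fell and 1 rose, against 46.7% lower and 21.6% higher over all genes. With length and GC offsets 4 fell and 3 rose, against 30.4% lower and 32.5% higher over all genes.

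Of 8 endosomal processing genes that feed class II, 4 were called higher, 2 lower and 2 neither way, against 32.4% higher and 33.0% lower over all genes. The counts were 3 higher and 3 lower with library totals alone, against 21.6% higher and 46.7% lower over all genes. The list's median was then −0.13, against 0.065 with TMM scaling, while that of all genes was −0.22, against −0.021. Ctsl, a cathepsin that degrades the invariant chain in thymic epithelium, stood at 579, 615 and 610 CPM with ASPS-A1, against 330, 326 and 317 CPM in control (log2 fold change 0.89 ± 0.047 SE, adjusted p = 2.69e-21). Ctsb (0.76, adjusted p = 3.37e-19) and Ctsd (0.36, adjusted p = 4.18e-09) also rose. Ctss, the cathepsin that degrades the invariant chain in B cells and dendritic cells, fell, with 307, 308 and 321 CPM with ASPS-A1 and 364, 347 and 362 CPM in control (−0.20 ± 0.046 SE, adjusted p = 2.41e-04). Marchf8, a ubiquitin ligase, fell by 0.22 on the log2 scale (adjusted p = 0.00618), with 0.0015 (adjusted p = 0.987) under length and GC offsets.

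Of 6 endoplasmic reticulum folding partners of class I, 3 were called higher, 1 lower and 2 neither way. The shares over all genes were 32.4% higher and 33.0% lower. Library totals alone gave 2 higher and 3 lower, against 21.6% higher and 46.7% lower over all genes. With length and GC offsets 6 were higher and 0 lower, against 32.5% higher and 30.4% lower over all genes. Pdia3, a disulfide isomerase of the loading complex, had 1096, 1117 and 1165 CPM with ASPS-A1, against 744, 765 and 742 CPM in control (log2 fold change 0.59 ± 0.047 SE, adjusted p = 3.26e-15). The lectin chaperone Calr (0.45, adjusted p = 3.85e-11) and the translocon subunit Sec61a1 (0.28, adjusted p = 6.45e-07) also rose. Uggt1, a folding sensor that returns class I for another round of binding, had −0.11 (adjusted p = 0.0425), a call lost on leaving out any of 4 libraries (replicates 1 and 3 of ASPS-A1, replicates 1 and 2 of control), and 0.17 (adjusted p = 6.44e-04) with length and GC offsets. Of 14 other MHC chain symbols sought, 8 were in the count table, and H2-L and H2-Ea were not. Of the 8 found, 4 were tested, of which 1, H2-Ob, was called lower, 0 higher and 3 neither way (edgeR). At an unadjusted p under 0.05, and with DESeq2 and limma-voom, 0 were higher also.

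**Figure D4:**
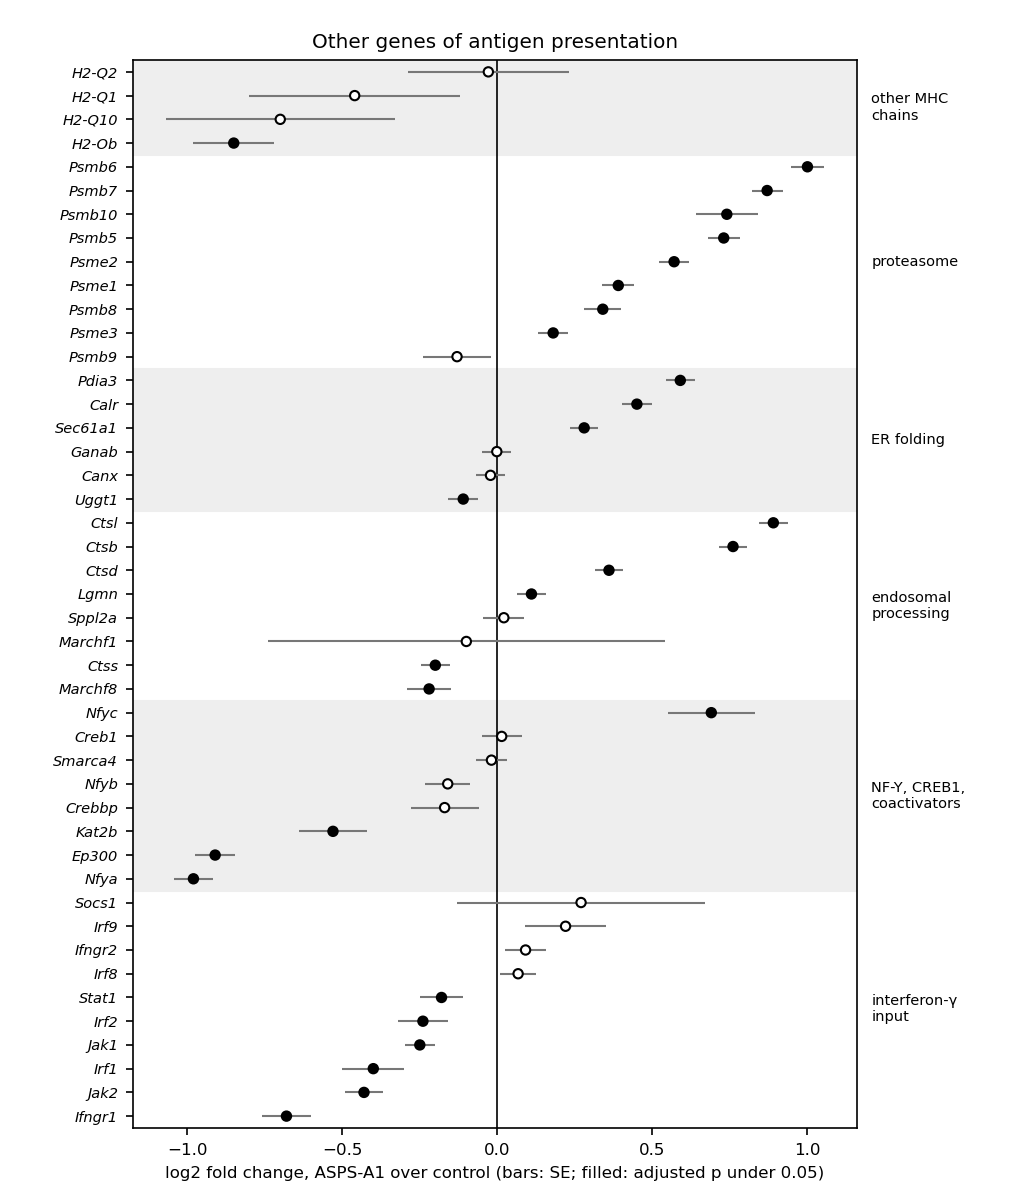
Log2 fold change, ASPS-A1 over control, with SE bars, of the tested genes in 6 lists around antigen presentation. Filled points had an adjusted p under 0.05. Proteasome genes lie right of 0 except Psmb9, and Ifngr1, Nfya, Ep300 and H2-Ob are among the lowest.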

How the data were processed

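The authors deposited raw read counts per gene, named by symbol, with 1 column for each library. The submitters' processing notes name DESeq 1.38.3, HTSeq 0.9.1, HISAT2 2.1.0 and fastp 0.22.0. Which genome build and annotation served, and how strand and multi-mapping reads were handled, is not given in the sources used here. Libraries were grouped by the treatment label, and no deposited column was left out.

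Genes were kept with filterByExpr (minimum count 10, minimum total 15), scaled with TMM factors and fitted with edgeR 4.0.16 in R 4.3.3 (estimateDisp and glmQLFit, both robust; glmQLFTest, two-sided). P-values were adjusted over all 11686 genes tested. The common biological coefficient of variation was 5.66%. Standard errors (SE) are |log2 fold change| over the root of the F statistic. CPM use TMM-scaled library sizes. The fitting script was tested on simulated counts with known fold changes. No pair of libraries in a group agreed within sampling noise (chi-square divided by its degrees of freedom, 4.21 to 6.80).

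The genes, lists and tests were chosen with earlier results of these data known. Every listed gene is accounted for, with values per library for each that was tested. Of each wider list, up to 3 called genes per direction with at least 10 CPM in the higher group are named. Genes named for the subunit or chain ratios (Psmb5, Psmb8 and Psmb9) were added for their textbook pairing. Gene models, transcript lengths, GC content and shared stretches of 100 bases came from GENCODE M21 (GRCm38), promoters from RefSeq. Transcript lengths were found for 97.4% of tested genes. Length and GC offsets were lowess curves (span 0.3), fitted for every library to its log ratios against gene means. Other alternatives were RLE and upper-quartile factors, library totals alone, DESeq2 1.42.0, limma-voom (limma 3.58.1), no filter or at least 1 CPM in 3 libraries, a replicate block, a fit without robust=TRUE, glmTreat against 1.5-fold, and leaving out each library.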

Additional observations from a re-analysis of the deposited data

How the results depend on the processing

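Of the 20 antigen presentation genes called, 4 (H2-Oa, H2-T24, Tapbpl and Rfxank) kept direction and call under all 17 alternatives. Setting glmTreat against 1.5-fold aside, 11 did so, those 4 included. Under the 3 other scalings 14 kept them. H2-T24 passed the filter only through the ASPS-A1 libraries, so its place among the 4 follows in part from that. Fold changes fell with transcript length across 11377 genes (Spearman −0.387, genes not being independent replicates), so small changes of short or long transcripts are uncertain.

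With library totals alone, the class I chains gave 2 higher, class I loading 1 higher, class II 6 lower, the class I-like genes 2 lower, other MHC chains 2 lower, the proteasome list 1 lower, endoplasmic reticulum folding 3 lower and the NF-Y list 7 lower. With length and GC offsets, the class I chains gave 1 higher, class I loading 2 lower, the class I-like genes 2 lower, other MHC chains 2 lower, the proteasome list 1 lower, folding 6 higher and 0 lower, endosomal processing 1 lower, the NF-Y list 3 higher and the interferon-γ list 1 higher. With glmTreat, 812 genes were higher and 880 lower, the class I chains gave 1 higher and 0 lower, class I loading 1 higher and 0 lower, class II 1 lower, RFX 0 lower, the class I-like genes 0 lower, the proteasome list 3 higher, folding 0 higher and 0 lower, endosomal processing 2 higher and 0 lower, the NF-Y list 0 higher and the interferon-γ list 0 lower. RLE factors and DESeq2 each gave 1 class II gene higher (Ifi30) and 0 folding genes lower. Over all genes, library totals alone called 21.6% higher and 46.7% lower, and length and GC offsets 32.5% higher and 30.4% lower.

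Directions turned for H2-K1 (−0.021), H2-D1 (−0.057), B2m (−0.051), Ifi30 (−0.10), H2-T22 (−0.09) and Rfxap (−0.022) with library totals alone. They also turned for H2-K1 (−0.031), B2m (−0.39), Ifi30 (−0.32), H2-T22 (−0.10), Lnpep (0.19), Uggt1 (0.17) and Marchf8 (0.0015) with length and GC offsets. Apart from what each setting does by construction, the cause was not tested. Leaving out 1 library moved Lnpep between −0.085 and 0.041 and gave 1 to 2 lower class I chains, 2 to 4 lower class I loading genes, 1 to 2 lower other MHC chains and 0 to 1 lower folding genes.

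Libraries with the same number did not deviate together (correlations of −0.0138, 0.00709 and 0.00398). Pairing by number was thus not detected, but such correlations cannot show that the cultures were unpaired. With the replicate block 3746 genes were higher and 3807 lower, no call among the 27 tested antigen presentation genes changed, and folding gave 0 lower. The short RFX core in place of the longer X box pattern was found in the promoter windows of 11 genes rather than 3. Depth limits H2-Aa, H2-Ab1, H2-DMb1, H2-DMb2, H2-Q7, H2-T24, Ciita and Cd1d1 most, and intervals and floors cover counting error only.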
